A study of Mus musculus with 20 samples.

Results

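The genes described here are the 35 subunits of the constitutive proteasome and of its activators, out of 55335 genes in the files. They were chosen by symbol, with earlier results of these data known, and matched to Ensembl identifiers through GENCODE vM21 on mm10. All 35 were found, are annotated as protein-coding, and passed the filter on low values, as did 13982 genes in all. They comprise 7 alpha subunits (Psma1 to Psma7) and 7 constitutive beta subunits (Psmb1 to Psmb7) of the 20S core, 6 ATPases (Psmc1 to Psmc6) and 11 non-ATPase subunits of the 19S cap, and 4 activators (Psme1 to Psme4). The 11 non-ATPase subunits are Psmd1, Psmd2, Psmd3, Psmd4, Psmd6, Psmd7, Psmd8, Psmd11, Psmd12, Psmd13 and Psmd14.

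RNA was sequenced from 20 CT26 tumours of mice, CT26 being a colon carcinoma line of BALB/c origin. The tumour cells carried either a vector or, per the sample labels, a POLE mutant, and the mice received PBS or anti-PD-1, an antibody against an inhibitory receptor of T cells. The 4 groups of 5 tumours are called vector PBS, vector anti-PD-1, mutant PBS and mutant anti-PD-1. POLE codes for the catalytic part of a replicative DNA polymerase, whereas the series title names CHEK2, a checkpoint kinase, so the altered tumours are called mutant. The mutation, the number of cell clones, the strain, sex and age of the mice, the antibody dose and the time of sampling are not stated. If each cell line was 1 clone, the mutation and other differences between the lines cannot be told apart. Replicate numbers follow the order of deposition and only name a tumour.

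The 26S proteasome degrades proteins tagged with ubiquitin. The alpha rings of its 20S core gate the chamber, the beta rings hold the proteolytic sites, and the 19S cap binds, unfolds and feeds in the substrate. Interferon-gamma induces Psmb8, Psmb9 and Psmb10, which take the places of the constitutive catalytic subunits Psmb5, Psmb6 and Psmb7 in newly built cores, called immunoproteasomes. It also induces PA28 alpha (Psme1) and PA28 beta (Psme2), which together form a ring that opens the core, and the peptides released feed MHC class I. PA28 gamma (Psme3) forms a nuclear activator of its own, and PA200 (Psme4) is a single-chain activator. Neither is a classical interferon target.

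Because Psme1 and Psme2 moved together in these tumours and Psme3 did not move with them, their start sites are shown first. Each stretch runs 5′ to 3′ from 100 bases before the start to the first 30 bases from it, from RefSeq on GRCm38.p6. Capitals mark a match to the interferon-stimulated response element, searched on both strands as GAAA, any 2 bases and GAAA, so that it can also read TTTC, any 2 bases and TTTC. The Psme1 stretch is chr14:55578394-55578523 on the plus strand, with the match at positions 10 to 19 from the start. The Psme2 stretch is chr14:55591072-55591201 on the minus strand, on the same chromosome as Psme1. The Psme3 stretch is chr11:101316113-101316242 on the plus strand.
Psme1: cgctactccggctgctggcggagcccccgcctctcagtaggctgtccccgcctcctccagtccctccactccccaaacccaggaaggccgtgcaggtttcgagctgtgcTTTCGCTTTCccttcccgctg
Psme2: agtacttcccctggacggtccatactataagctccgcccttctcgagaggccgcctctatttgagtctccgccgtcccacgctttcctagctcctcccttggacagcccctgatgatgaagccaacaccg
Psme3: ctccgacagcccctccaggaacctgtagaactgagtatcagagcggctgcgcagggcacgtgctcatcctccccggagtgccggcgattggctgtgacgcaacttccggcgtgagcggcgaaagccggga

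RefSeq windows of 300 bases were found for 29 of the 35 genes. The response element letters were present in 3 of the 29 genes (Psme1, Psmb3 and Psmd4). That is 9.38% of their 32 windows, against 3.44% of all 32851 windows. The antioxidant response element letters TGANNNNGC, on either strand, were present in 16 genes, in 56.2% of the 32 windows against 41.3% of all windows. Psme2 has 2 windows and neither matched the response element letters. A further motif was searched and is not reported here. A match is a description of the letters and shows no binding.

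Values are FPKM, fragments scaled by transcript length and library size, so levels can be compared between genes. Library totals ran from 328740 to 566913 FPKM, and the depth in reads is unknown. Most libraries correlated with the others at a mean Spearman value of 0.90 to 0.93, but 3 were lower: vector anti-PD-1 replicate 1 (0.776) and mutant anti-PD-1 replicates 1 (0.748) and 2 (0.835). The first of these also had the highest total and the lowest mitochondrial share, 2.85%. In it, 30 of the 35 genes lay above the median of the other 4 tumours of its group, with a median log2 ratio of 0.70, and 5 (Psmc6, Psmd2, Psmd11, Psme3 and Psme4) lay below. Over the 35 genes that ratio had a Spearman correlation of -0.716 with the longest coding transcript, given as a description. Main results that it moves are therefore given with and without it. Of 8 epithelial markers, Epcam, Cdh1, Cdx2, Vil1 and Cldn7 failed the filter on low values, which left Krt8, Krt18 and Krt19. In vector PBS tumours these averaged 1.12, 12.9 and 0.36 FPKM. The carcinoma origin is therefore taken from the CT26 label and not from markers.

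The 35 genes were all well expressed. In vector PBS tumours the group means ran from 8.98 FPKM for Psme4 to 95.9 FPKM for Psmb4, a 10.7-fold range, with a median of 41.0 FPKM. The mean log2(FPKM + 1) over the 35 genes was 5.38 ± 0.051 (SD, n = 5) in vector PBS tumours and 5.39 ± 0.12 in mutant anti-PD-1 tumours. It was 5.45 ± 0.063 in mutant PBS tumours and 5.49 ± 0.29 in vector anti-PD-1 tumours, where replicate 1 reached 5.95. Within groups, Psme2 and Psme1 had the widest spread of the 35, with residual SDs of 0.445 and 0.425 on the log2 scale. The median of the 35 was 0.22, against 0.304 over all genes tested. Without vector anti-PD-1 replicate 1, the spread of Psme2 and Psme1 was 0.395 and 0.383 while the median of the 35 fell to 0.137. The map of all 35 genes shows this pattern.

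**Figure D1:**
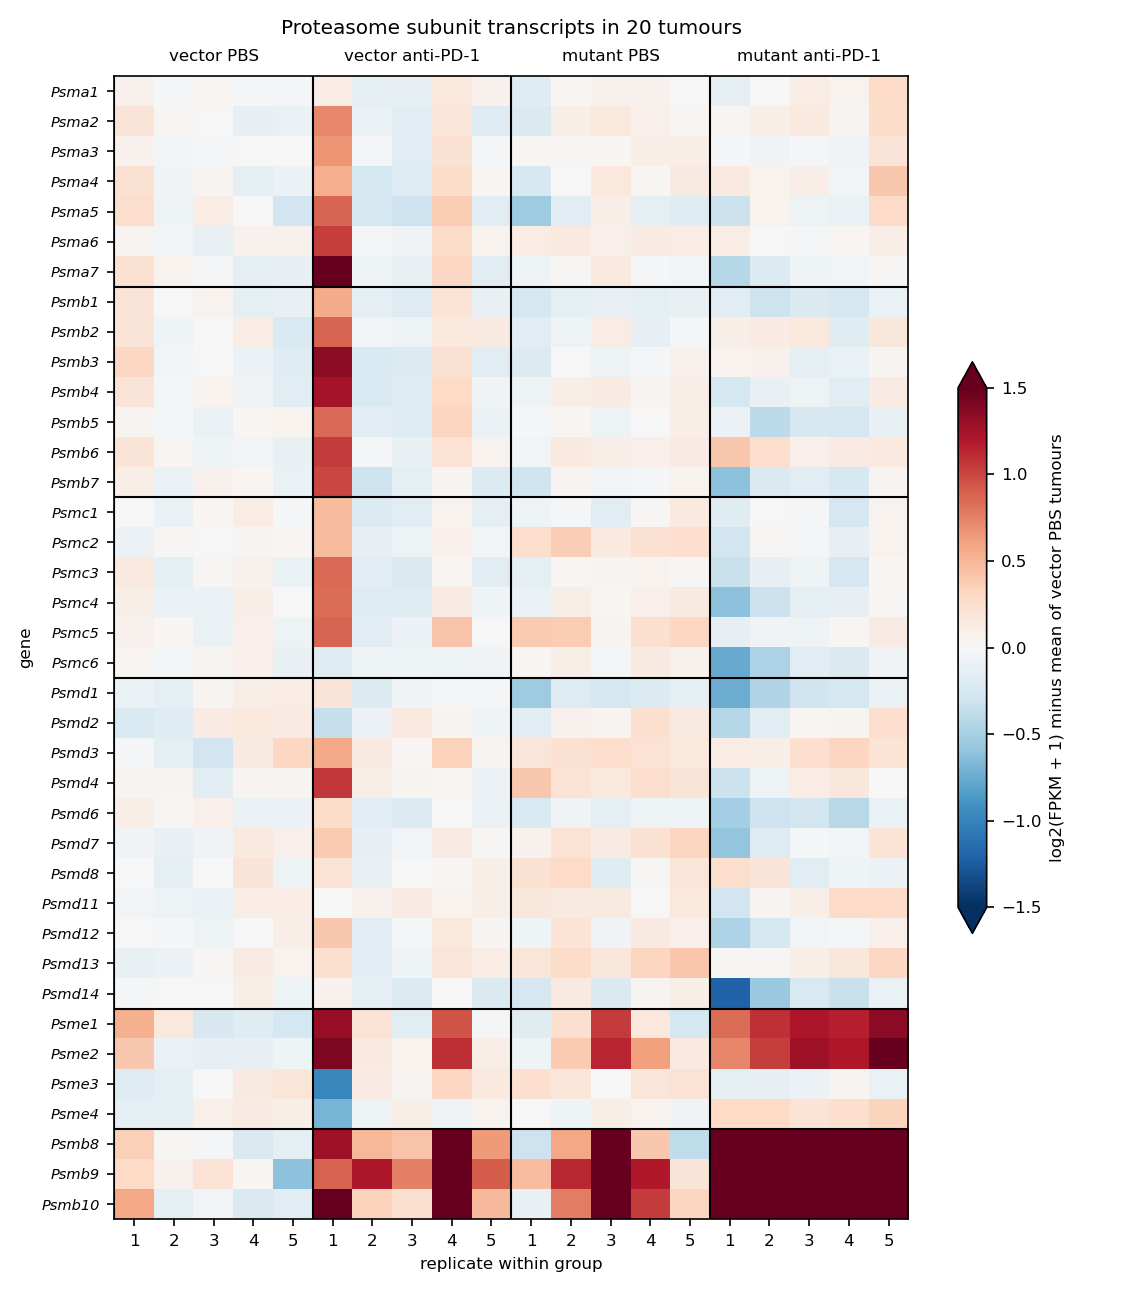
Each cell is the log2(FPKM + 1) of a gene (rows) in a tumour (columns) minus the mean of the 5 vector PBS tumours, with colours limited to 1.5 either way. Horizontal lines separate the alpha ring, beta ring, 19S ATPases, 19S non-ATPase subunits, activators and, at the foot, the 3 immunoproteasome subunits. Psme1 and Psme2 were high in all 5 mutant anti-PD-1 tumours, and vector anti-PD-1 replicate 1 was high for most genes.

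An interferon score was computed for each tumour as the mean log2(FPKM + 1) of 20 interferon-gamma targets, none of them among the 35. It ran from 2.29 to 3.11 in vector PBS, from 2.08 to 4.94 in vector anti-PD-1, from 3.03 to 5.66 in mutant PBS and from 5.19 to 6.47 in mutant anti-PD-1 tumours. Mutant anti-PD-1 tumours overlapped mutant PBS tumours through replicate 3 of the latter. In bulk tissue, fewer cells of a type and less RNA per cell cannot be told apart, and this holds for every level below.

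The alpha and beta subunits of PA28 were the subunits that passed the threshold upwards with the antibody in mutant tumours, over all 20 libraries. Psme1 measured 32.2, 43.8, 77.1, 41.0 and 30.5 FPKM in the 5 mutant PBS tumours and 66.6, 79.9, 86.5, 83.7 and 94.5 FPKM in the 5 mutant anti-PD-1 tumours. In the vector groups it measured 53.8, 41.0, 30.8, 32.2 and 30.5 FPKM under PBS and 92.6, 42.7, 32.9, 71.5 and 36.3 FPKM under the antibody. Every mutant anti-PD-1 tumour lay above 4 of the 5 mutant PBS tumours, and replicate 3 of mutant PBS overlapped them. The log2 fold change of Psme1 between the mutant groups was 1.002 ± 0.26 (SE, n = 5 per group), with an adjusted p of 0.00703 in limma.

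Psme2 followed the same order at a higher level. It measured 47.4, 65.8, 111.2, 76.8 and 55.1 FPKM in mutant PBS and 83.2, 102.7, 121.0, 115.3 and 146.7 FPKM in mutant anti-PD-1 tumours. In the vector groups it measured 66.3, 46.5, 45.5, 45.5 and 47.5 FPKM under PBS and 132.5, 55.3, 51.7, 108.6 and 53.5 FPKM under the antibody. The mutant groups overlapped, again through mutant PBS replicate 3, and vector anti-PD-1 replicates 1 and 4 stood far above the other 3 of their group. Its log2 fold change with the antibody in mutant tumours was 0.74 ± 0.27 (SE), with an adjusted p of 0.0448. The ratio of Psme1 to Psme2 ran from 0.534 to 0.881 over the 20 tumours.

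These were the 2 of 35 genes that passed the threshold upwards in that comparison, where 15.9% of all genes tested did so. At an unadjusted p under 0.05 there were 6 of 35, the 2 and the 4 described below that fell, against 41.6% of all genes. Psme1 stayed past the threshold without any single tumour. Psme2 did so in 7 of the 20 runs that left out 1 tumour, with adjusted p values between 0.0175 and 0.118. Within the 11 libraries whose titles carry an M before their number, the log2 fold changes were 0.60 for Psme1 and 0.39 for Psme2. Neither passed there. Within the 9 with a number alone they were 1.29 and 0.95, with adjusted p values of 0.00032 and 0.00307 in limma. The mutant tumours among those 9 are PBS replicates 4 and 5 and anti-PD-1 replicates 3, 4 and 5. Mutant PBS replicate 3, the tumour that overlapped, is not among them. The labels do not say what this style of title marks. With a skeletal muscle score as a term, Psme1 was at 0.83 (adjusted p 0.048) and Psme2 at 0.59 (adjusted p 0.179).

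Psme2 shares sequence with an annotated copy, so its level is uncertain. Of its 50-base stretches, 28.3% also occur in Psme2b, which was listed at 15.4 to 62.3 FPKM. Psme2b rose in the same comparison by 0.85 ± 0.25 (log2, SE), with an adjusted p of 0.0178. The treatment of reads that match both genes is not stated.

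The other activators took different courses. Psme3 measured 39.3, 37.5, 32.9, 37.5 and 38.4 FPKM in mutant PBS and 29.5, 30.2, 30.9, 34.0 and 30.6 FPKM in mutant anti-PD-1 tumours. The lower group thus overlapped the higher through 1 tumour on each side, and the log2 difference of -0.28 ± 0.17 (SE) had an adjusted p of 0.227. Without vector anti-PD-1 replicate 1, whose Psme3 was 16.2 FPKM against 33.9 to 41.0 FPKM in the rest of its group, the shared spread was smaller and the difference of -0.27 ± 0.081 passed at 0.0129.

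Psme4 measured 8.93, 8.54, 9.59, 9.31 and 8.63 FPKM in mutant PBS and 11.3, 11.2, 10.5, 10.8 and 11.5 FPKM in mutant anti-PD-1 tumours. In the vector groups it measured 8.001, 8.06, 9.46, 9.85 and 9.56 FPKM under PBS and 5.12, 8.43, 9.58, 8.597 and 9.35 FPKM under the antibody. All 5 mutant anti-PD-1 tumours lay above the other 15 tumours. Between the mutant groups the log2 difference was 0.25 ± 0.12 (SE), adjusted p 0.133 over all 20 libraries and 0.00487 without vector anti-PD-1 replicate 1. Psme1, Psme2 and Psme4 then passed upwards, 3 of 35 against 20.6% of all genes.

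**Figure D2:**
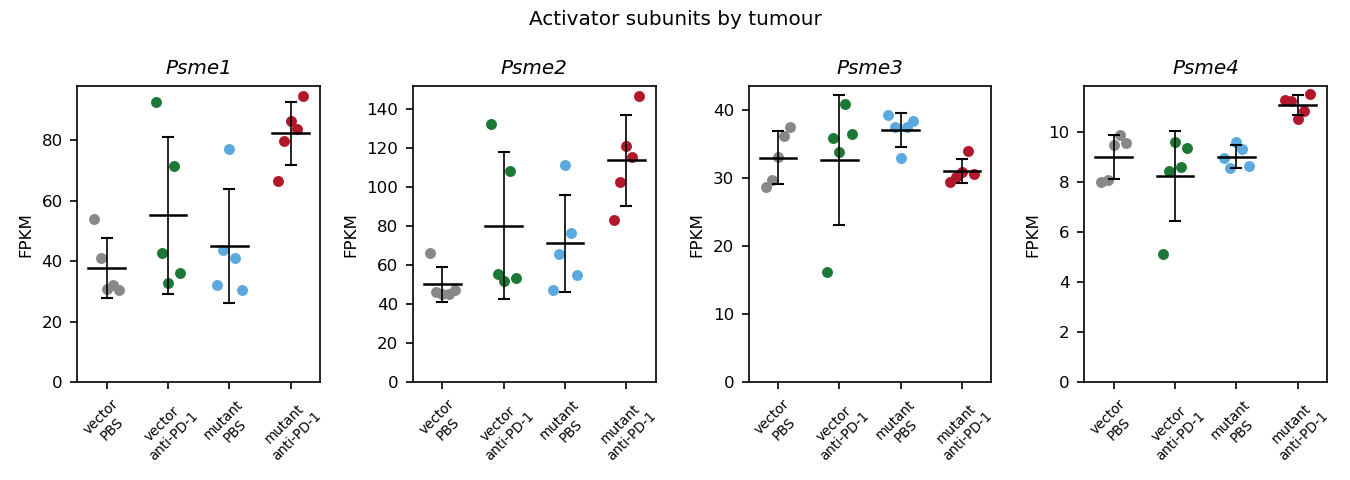
FPKM of the 4 activator genes in each tumour (points), with the group mean (bar) and SD (whiskers), n = 5 per group. Psme1 and Psme2 were highest on average in mutant anti-PD-1 tumours, Psme3 was not, and the Psme4 values of that group, 10.5 to 11.5 FPKM, lay above those of all others.

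Against vector tumours under the same antibody, Psme1 and Psme4 passed the threshold upwards, 2 of 35 against 17.8% of all genes tested. At an unadjusted p under 0.05 there were 8 of 35, against 42.9% of all genes. The log2 difference was 0.74 ± 0.26 (SE) for Psme1, adjusted p 0.0331, and 0.39 ± 0.12 for Psme4, adjusted p 0.0198. Psme2 was at 0.62 ± 0.27 with an adjusted p of 0.0842, and at 0.81 ± 0.25 with 0.016 without vector anti-PD-1 replicate 1. Leaving that tumour out also moved Psme1 to 0.91 (adjusted p 0.00656) and Psme4 to 0.27 (adjusted p 0.00649). Within M-style libraries Psme1 was at 0.15 and Psme2 at -0.01, and within number-only libraries at 1.33 and 1.26. The M-style vector anti-PD-1 tumours are replicates 1, 2 and 4, which hold the 3 highest Psme1 and Psme2 values of that group.

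Without the antibody, mutant and vector tumours did not differ past the threshold in any of the 35 genes, against 0.529% of all genes tested higher and 0.923% lower in limma. At an unadjusted p under 0.05 there were 3 of 35, Psmc2, Psmd1 and Psmd13, against 11% of all genes. Psme1 differed by 0.20 and Psme2 by 0.45 on the log2 scale, with 95% intervals of -0.33 to 0.74 and -0.11 to 1.005. In vector tumours the antibody brought no gene past the threshold in limma, neither among the 35 nor over all genes (0% in either direction). Psme2 was the member with an unadjusted p under 0.05 there, at 0.56 ± 0.27 (log2, SE) with an adjusted p of 0.724, against 3.05% of all genes. Leaving out vector anti-PD-1 replicate 1 put it at 0.36 ± 0.25, and Psme1 moved from 0.46 to 0.27, both with an adjusted p of 1.

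The direct test of whether the antibody response differed between mutant and vector tumours called none of the 35 genes, against 7.4% of all genes higher and 1.95% lower. With vector anti-PD-1 replicate 1 left out it called Psme3 lower, at -0.41 ± 0.12 (log2, SE) with an adjusted p of 0.0293, where 7.11% of all genes were lower, and Psme1 and Psme2 were at 0.71 and 0.36. The difference of responses was 0.54 for Psme1, with a 95% interval of -0.22 to 1.304, and 0.17 for Psme2, with an interval of -0.62 to 0.97. At an unadjusted p under 0.05 there were 5: Psmc2, Psmc5, Psmc6 and Psmd7, with values between -0.33 and -0.49, and Psme4 at 0.39, against 27% of all genes. The antibody and genotype comparisons share groups, so their values are not independent of each other.

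Inside the groups, Psme1 and Psme2 rose with the interferon score once vector anti-PD-1 replicate 1 was left out, as did Psma5 with a smaller slope. The slope is the change in log2(FPKM + 1) per unit of the score among tumours of the same group. In all 20 tumours it was 0.24 ± 0.12 (SE) for Psme1 and 0.25 ± 0.12 for Psme2, with adjusted p values of 0.184 and 0.182. None of the 35 genes passed, against 4.19% of all genes with a positive slope and 0.093% with a negative one. Psmd2 and Psmd8 had an unadjusted p under 0.05, with slopes of 0.11 and -0.12, against 30.1% of all genes. The 95% interval of the slope lay inside a 1.5-fold change per unit for all 35 genes, against 88.1% of all genes.

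Vector anti-PD-1 replicate 1 combined the lowest interferon score of all 20 tumours, 2.08, with the second highest Psme2, 132.5 FPKM. In the other 19 tumours the slope was 0.49 ± 0.056 (SE) for Psme1 and 0.52 ± 0.049 for Psme2, with adjusted p values of 6.35e-05 and 6.21e-06. Psma5 also passed, at 0.28 ± 0.056 with an adjusted p of 0.0103. These 3 of 35 compare with 2.47% of all genes with a positive slope past the threshold in the same 19 tumours. The plot of level against score shows Psme2 rising with the score and Psme3 and Psmb6 nearly flat. It pools the groups, so differences between groups enter it beside the slope inside groups.

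**Figure D3:**
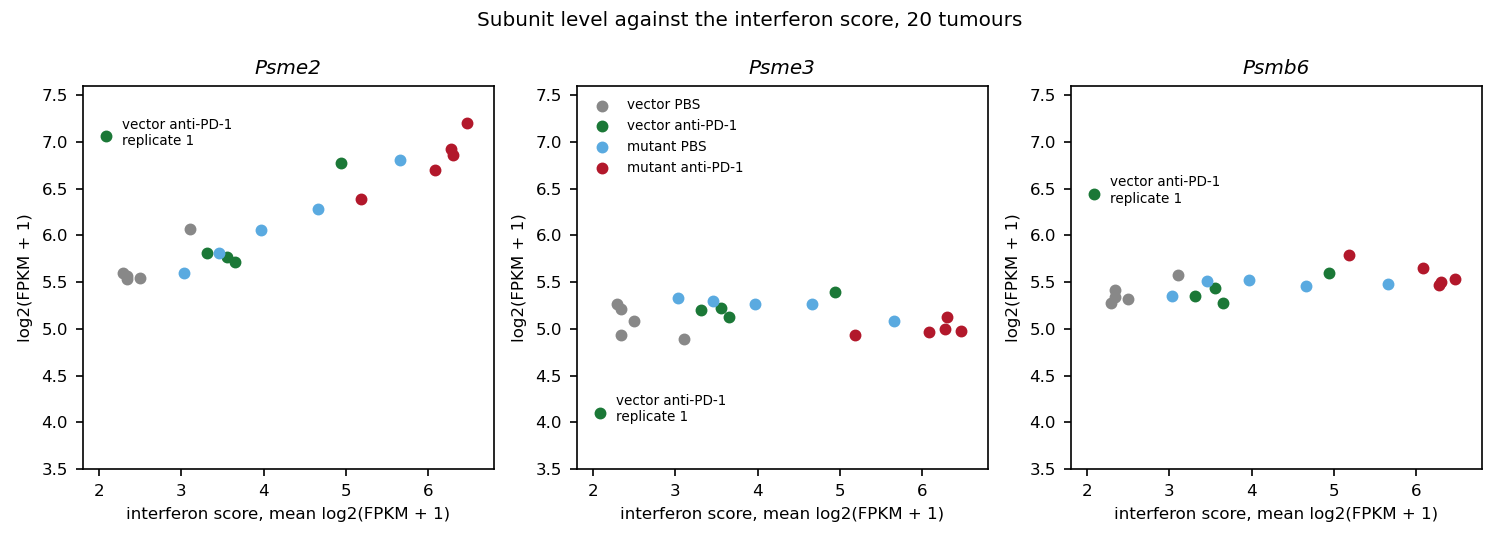
Each point is a tumour, with its interferon score on the x axis and the log2(FPKM + 1) of Psme2, Psme3 or Psmb6 on the y axis, coloured by group. Vector anti-PD-1 replicate 1, at a score of 2.08, is apart from the other 19 tumours in all 3 panels.

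The other 33 genes had small slopes. Over all 20 tumours they ran from -0.14 to 0.13, with a median of -0.02, and 13 were positive. Without vector anti-PD-1 replicate 1 they ran from -0.13 to 0.28, with a median of 0.08, and 31 were positive. The highest upper 95% limit among them was then 0.40, below the lower limit for Psme2, 0.42, and above that for Psme1, 0.37. Over all genes tested the median slope was 0.10 with that library and 0.03 without it. Without all 3 poorly correlated libraries, Psme1 (0.47), Psme2 (0.51), Psma5 (0.27), Psma2 and Psma7 passed, against 7.76% of all genes upwards and 1.67% downwards.

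Psma5, an alpha ring subunit, measured 112.0, 88.8, 100.8, 92.5 and 75.9 FPKM in vector PBS and 171.3, 77.4, 74.8, 121.9 and 83.7 FPKM in vector anti-PD-1 tumours. It measured 64.0, 83.2, 99.7, 85.2 and 82.4 FPKM in mutant PBS and 74.4, 96.7, 88.7, 86.7 and 114.2 FPKM in mutant anti-PD-1 tumours. The 4 groups overlapped, and the tumours with the highest scores of mutant PBS (replicate 3) and mutant anti-PD-1 (replicate 5) were also the highest for Psma5. This is not particular to Psma5, since these tumours were the highest of their groups for 7 and 10 of the 14 core subunits. In vector anti-PD-1 tumours the highest Psma5 was in replicate 1, which had the lowest score of all 20. In the mutant antibody comparison Psma5 did not pass, with a 95% interval that crossed the 1.5-fold bound used below. Of its 50-base stretches 50% recur in other annotated genes, mostly Gm8394, a pseudogene, and Gm12989, so its level is uncertain.

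The score and the subunits come from the same libraries, so any scaling of a library enters both. With every library rescaled to the same total, all 20 tumours gave slopes past the threshold for Psme1 (0.29, adjusted p 0.0268) and Psme2 (0.30, adjusted p 0.0282). Psma1, Psmc6 and Psmd2 passed with them, at a setting where 31.1% of all genes had a positive slope past the threshold. Within M-style libraries the slopes were 0.19 for Psme1 and 0.21 for Psme2, and within number-only libraries 0.35 and 0.43. None of these 4 passed, in designs with few tumours per group.

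**Figure D4:**
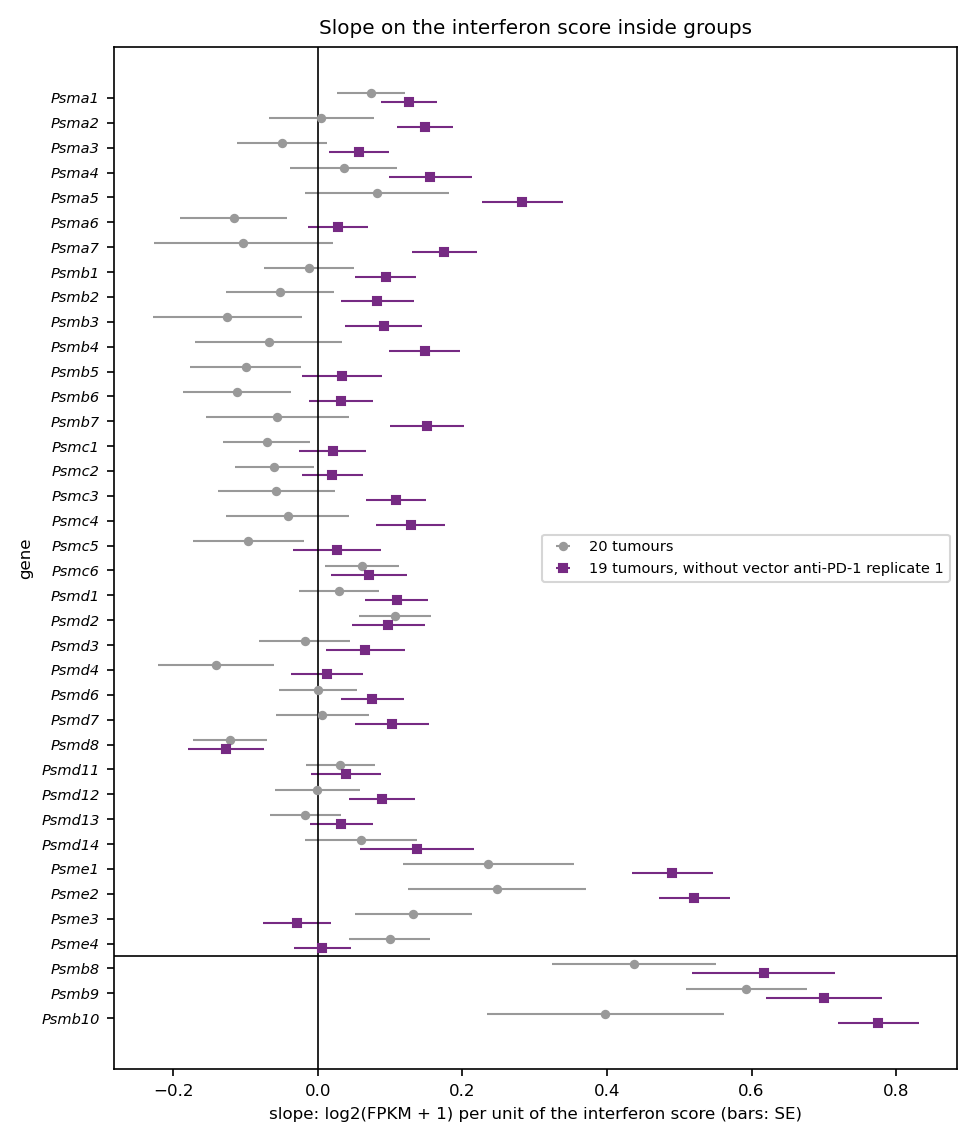
Slopes on the interferon score inside groups for the 35 genes and the 3 immunoproteasome subunits, with SE bars, for 20 tumours (grey circles) and for 19 without vector anti-PD-1 replicate 1 (purple squares). Psme1 and Psme2 moved from 0.24 and 0.25 to 0.49 and 0.52, and among the other 33 the highest was 0.28 for Psma5.

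The immunoproteasome subunits gave the scale against which the constitutive catalytic subunits can be read. Psmb8 measured 5.995, 11.9, 30.3, 10.4 and 5.63 FPKM in mutant PBS and 68.7, 57.0, 47.1, 42.7 and 46.2 FPKM in mutant anti-PD-1 tumours, with no overlap. All 3 passed in that comparison, at log2 fold changes of 2.28 for Psmb8, 1.94 for Psmb9 and 1.32 for Psmb10. Their slopes on the score were 0.44, 0.59 and 0.40 in 20 tumours and 0.62, 0.70 and 0.78 in 19.

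Their constitutive counterparts Psmb5, Psmb6 and Psmb7, the chymotrypsin-like, caspase-like and trypsin-like sites, did not pass in any comparison of the main fit. With the antibody in mutant tumours, Psmb5 passed downwards in 2 of 33 alternative fits and had a negative estimate in all 33. Psmb5 measured 64.7, 66.7, 61.8, 65.0 and 70.1 FPKM in mutant PBS and 61.7, 49.7, 55.2, 54.2 and 60.4 FPKM in mutant anti-PD-1 tumours. The higher group lay wholly above the lower, by 61.8 against 61.7 FPKM at the margin, and the log2 difference was -0.21 ± 0.16 (SE). In the vector groups Psmb5 measured 67.2, 64.5, 60.9, 66.5 and 67.99 FPKM under PBS and 119.0, 57.8, 56.9, 82.01 and 61.1 FPKM under the antibody. The level of Psmb5 is uncertain, since 54.1% of its 50-base stretches recur elsewhere, mostly in Gm3375, a pseudogene listed at 33.2 to 65.0 FPKM.

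Psmb6 measured 39.8, 45.1, 43.8, 43.0 and 44.5 FPKM in mutant PBS and 54.3, 49.4, 43.2, 44.5 and 45.4 FPKM in mutant anti-PD-1 tumours. Its log2 difference of 0.16 had a 95% interval of -0.17 to 0.49, inside a 1.5-fold change (0.585 on the log2 scale) either way. Psmb7 measured 33.1, 42.0, 39.8, 40.05 and 42.4 FPKM in mutant PBS and 26.3, 35.1, 36.5, 34.4 and 42.2 FPKM in mutant anti-PD-1 tumours. Those groups overlapped, and the interval of Psmb7, -0.59 to 0.23, just crossed the bound. In vector PBS tumours Psmb6 ran from 37.8 to 46.7 FPKM and Psmb7 from 38.2 to 43.98 FPKM.

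Ratios within a tumour do not depend on library scaling. Psmb8 over Psmb5 was 0.0927, 0.179, 0.490, 0.160 and 0.0803 in mutant PBS and 1.11, 1.15, 0.853, 0.788 and 0.764 in mutant anti-PD-1 tumours. The groups did not overlap, and the ratio was 5.75-fold higher with the antibody (exact two-sided permutation test, n = 5 per group, p 0.00794, the smallest this design allows, adjusted p 0.0159 over 12 tests). Psmb10 over Psmb7 was 2.79-fold higher, with the same exact p and no overlap. Psmb9 over Psmb6 was 3.67-fold higher, with overlap through mutant PBS replicate 3 and an exact permutation adjusted p of 0.0238.

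The 3 ratios were also higher with the antibody in vector tumours, by 1.83-fold, 2.14-fold and 1.93-fold in the order Psmb8 over Psmb5, Psmb9 over Psmb6 and Psmb10 over Psmb7. Their exact permutation adjusted p values were 0.0159, 0.0433 and 0.0238, and the groups overlapped for Psmb9 over Psmb6 and Psmb10 over Psmb7. In limma 0 of the 3 immunoproteasome genes themselves passed with the antibody in vector tumours. Between mutant and vector tumours under PBS, 0 of 3 passed. Under PBS, mutant tumours had higher ratios than vector tumours for Psmb9 over Psmb6 (2.29-fold) and Psmb10 over Psmb7 (1.86-fold). Each had overlap and an exact permutation adjusted p of 0.0286. These calls under PBS and that of Psmb9 over Psmb6 in vector tumours did not survive leaving out some single tumours, among them vector PBS replicate 5, without which the exact adjusted p values were 0.0779, 0.0741 and 0.0762. With all tumours kept, Psmb8 over Psmb5 was 1.37-fold higher in mutant than in vector tumours under PBS. The groups overlapped, with an exact permutation adjusted p of 0.437. Under the antibody the mutant tumours were 4.29-fold, 3.93-fold and 2.68-fold higher, each with no overlap and an exact permutation adjusted p of 0.0159.

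The PA28 ratios gave no call after adjustment over their 8 tests. Psme1 over Psme3 was 0.819, 1.17, 2.34, 1.09 and 0.794 in mutant PBS and 2.26, 2.65, 2.79, 2.46 and 3.08 in mutant anti-PD-1 tumours. That is 2.31-fold higher with overlap through 1 mutant PBS tumour (exact permutation p 0.0159, adjusted p 0.0635, n = 5 per group). Psme2 over Psme3 was 1.96-fold higher with the same exact p and adjusted p. Without vector anti-PD-1 replicate 1, where these ratios were 5.72 and 8.19, both had an exact permutation adjusted p of 0.0318. The mutant against vector difference under the antibody then had the same exact adjusted p, at 2.21-fold and 2.07-fold.

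The rest of the 20S core had no call in the mutant antibody comparison. Over the 7 alpha subunits the median log2 fold change was 0.05, with a range of -0.11 to 0.18. Over the 7 constitutive beta subunits the median was -0.03, with a range of -0.21 to 0.16, and over all genes tested it was -0.10. The 95% interval lay inside the 1.5-fold bound for 5 of the 7 alpha and 6 of the 7 beta subunits. Those outside it were Psma5, Psma7 and Psmb7. Over all 35 genes 23 lay inside, against 33.1% of all genes tested.

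Psma7, singled out after its values were seen, had the widest interval of the core. It measured 53.0, 57.0, 62.1, 55.5 and 54.4 FPKM in mutant PBS and 41.4, 48.5, 53.6, 54.6 and 57.0 FPKM in mutant anti-PD-1 tumours, with overlap. In vector anti-PD-1 tumours it measured 181.7 FPKM in replicate 1 and 50.3 to 69.6 FPKM in the rest. The residual SD of Psma7 was 0.407 with that tumour and 0.163 without it.

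In the vector antibody comparison 28 of 35 genes lay inside the bound, against 51.7% of all genes, and the core medians were 0.10 for the alpha and 0.19 for the beta ring. Both medians were close to 0 without replicate 1 of vector anti-PD-1, at -0.01 and -0.04. In the PBS comparison of mutant against vector tumours 30 of 35 lay inside, against 53.1% of all genes, and Psma5, Psmc5, Psmd4, Psme1 and Psme2 did not. Under the antibody 23 of 35 lay inside, against 34% of all genes, and for the difference of responses 14 of 35, against 18.5%.

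In mutant tumours the antibody brought 4 of 35 genes past the threshold downwards, a share below the 14.6% of all genes tested that did so. They are 19S subunits, and whether the cap differed from the other subunits was not tested: Psmc2 and Psmc6 of the ATPase ring, Psmd7, and Psmd14, the deubiquitinase of the lid. The estimates were negative for all 17 subunits, with medians of -0.28 over 6 ATPases and -0.18 over 11 non-ATPase subunits. For comparison, 8357 of the 13982 genes tested had a negative estimate.

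Psmc6 measured 44.5, 46.2, 42.4, 47.6 and 45.3 FPKM in mutant PBS and 25.3, 31.1, 38.4, 37.1 and 41.8 FPKM in mutant anti-PD-1 tumours. The groups did not overlap, and the log2 fold change was -0.42 ± 0.11 (SE), adjusted p 0.00725. Psmc2 measured 25.6, 27.5, 23.6, 24.9 and 25.4 FPKM in mutant PBS and 17.2, 21.4, 20.7, 19.4 and 22 FPKM in mutant anti-PD-1 tumours. Again there was no overlap, with a log2 fold change of -0.32 ± 0.11 and an adjusted p of 0.0403. In vector PBS tumours Psmc2 ran from 19.8 to 21.7 FPKM, which is within the range of the mutant anti-PD-1 tumours.

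Psmd14 measured 50.5, 66.4, 51.9, 61.8 and 64.2 FPKM in mutant PBS and 25.4, 40.5, 51.2, 47.7 and 56.2 FPKM in mutant anti-PD-1 tumours. Psmd7 measured 65.5, 73.0, 68.5, 74.0 and 79.1 FPKM in mutant PBS and 41.4, 54.8, 61.8, 61.2 and 72.8 FPKM in mutant anti-PD-1 tumours. Both pairs of groups overlapped, and in both genes replicate 1 of mutant anti-PD-1 was lowest and replicate 5 highest. The log2 fold changes were -0.48 ± 0.16 (SE) for Psmd14, adjusted p 0.0269, and -0.35 ± 0.13 for Psmd7, adjusted p 0.0465. Mutant anti-PD-1 replicate 1 was the lowest of its group in 13 of the 17 subunits of the 19S cap, and replicate 5 the highest in 14.

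**Figure D5:**
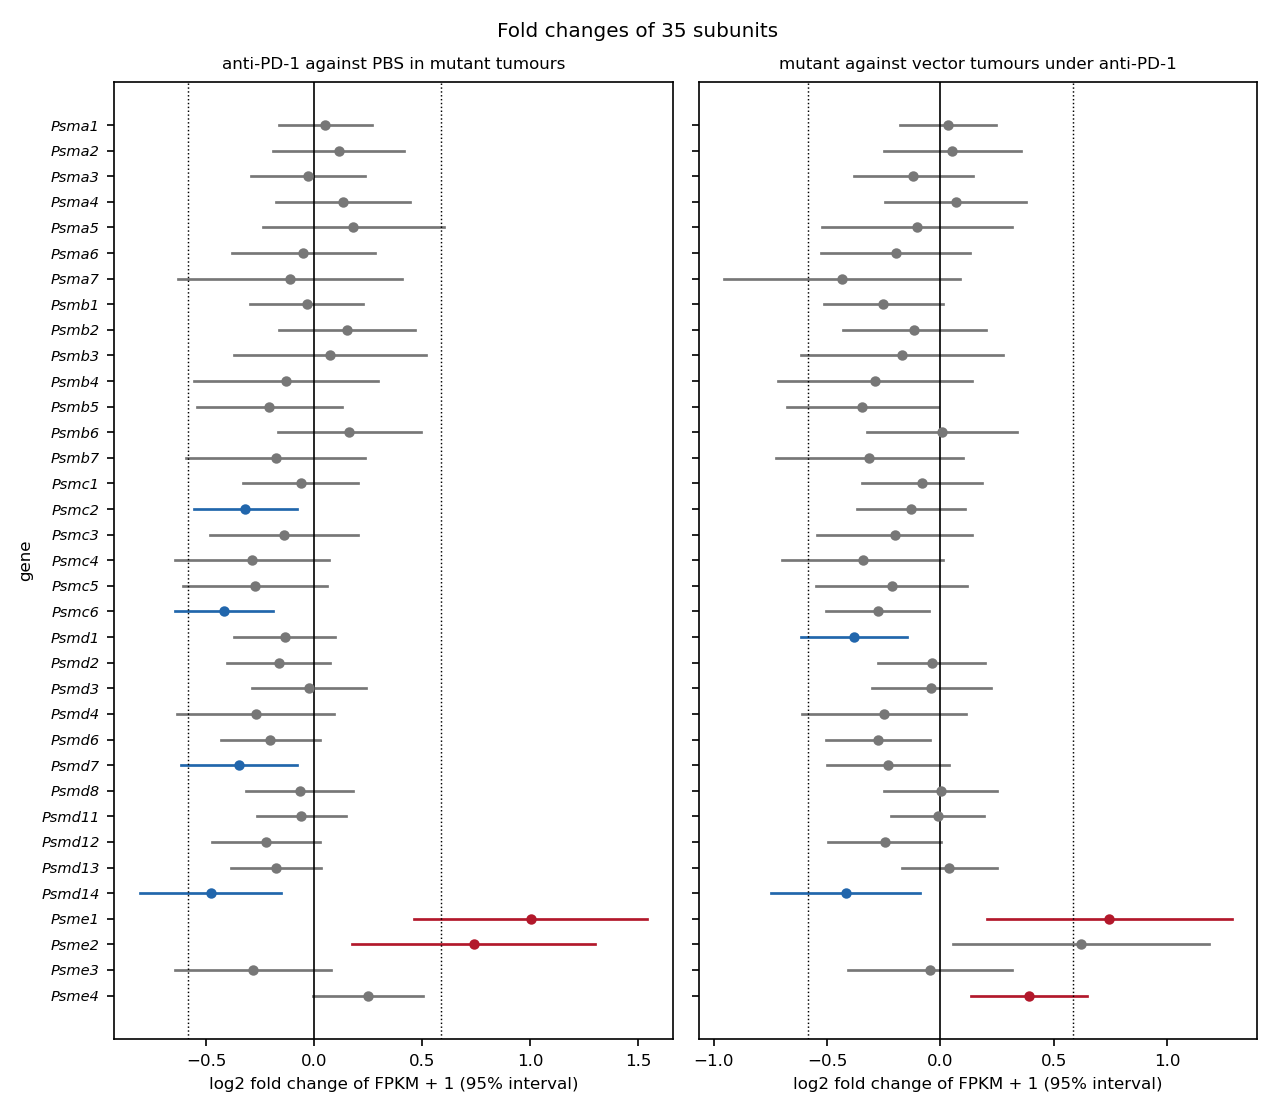
Log2 fold changes of FPKM + 1 with 95% intervals for the 35 genes, for the antibody in mutant tumours (left) and for mutant against vector tumours under the antibody (right). Red and blue mark genes past the adjusted threshold of 0.05, dotted lines a 1.5-fold change. On the left, Psme1 and Psme2 are higher, and Psmc2, Psmc6, Psmd7 and Psmd14 lower.

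How many of the 19S falls passed depended on the scaling, and for Psmc2, Psmd7 and Psmd14 the call also depended on single tumours. All 4 genes had negative estimates in all 33 alternative fits. Quantile normalization put 3 of the ATPases and 2 of the non-ATPase subunits past the threshold downwards, and median centring 1 of each. With every library rescaled to the same total, none of the 4 passed (adjusted p 0.0981 for Psmc2, 0.0873 for Psmc6, 0.105 for Psmd7 and 0.072 for Psmd14), and the medians were -0.22 and -0.12. At that setting Psmd3 alone of the 17 had a positive estimate, 0.03, and 8.27% of all genes passed downwards. Without the 3 poorly correlated libraries 2 passed, Psmc2 at -0.28 (adjusted p 0.0141) and Psmc6 at -0.21 (adjusted p 0.0376), against 9.96% of all genes downwards. Without vector anti-PD-1 replicate 1, which enters only through the shared spread and style term, 10 passed, against 27.9% of all genes: Psmc2, Psmc4, Psmc5, Psmc6, Psmd4, Psmd6, Psmd7, Psmd12, Psmd14 and Psme3.

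Within M-style libraries, which hold mutant anti-PD-1 replicates 1 and 2, the values were -0.64 for Psmc6, -0.78 for Psmd14, -0.39 for Psmc2 and -0.52 for Psmd7. Within number-only libraries they were -0.24, -0.28, -0.27 and -0.23. Psmc6 was past the threshold in all 20 runs that left out 1 tumour and Psmd14 in 16, while Psmc2 was in 8 and Psmd7 in 5.

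Against vector tumours under the antibody, Psmd1, a scaffold of the base, and Psmd14 were lower, 2 of 35 against 15.1% of all genes. Psmd1 measured 31.9, 23.9, 26.8, 27.2 and 27.4 FPKM in vector anti-PD-1 and 16.2, 20.03, 22.3, 23.0 and 25.9 FPKM in mutant anti-PD-1 tumours, with overlap. Its log2 difference was -0.38 ± 0.11 (SE), adjusted p 0.0144. Under PBS it measured 25.7, 25.0, 28.7, 29.5 and 30.1 FPKM in vector and 18.9, 24.1, 23.2, 23.9 and 24.9 FPKM in mutant tumours, which did not overlap, at -0.27 ± 0.11 and an adjusted p of 0.355. Psmd14 measured 63.0, 54.5, 52.1, 60.2 and 51.6 FPKM in vector anti-PD-1 tumours, and its difference was -0.42 ± 0.16, adjusted p 0.0476.

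With every library rescaled to the same total neither passed, at -0.19 for Psmd1 and -0.22 for Psmd14. The median of the 35 genes in this comparison turned from -0.13 to 0.06 with that scaling, while the median of all genes moved from 0.00 to 0.14. Without the 3 poorly correlated libraries the values were -0.21 and -0.09, and neither passed. Within number-only libraries they were -0.19 and -0.01, and within M-style libraries -0.58 and -0.86. Without vector anti-PD-1 replicate 1 alone, Psmd1 was at -0.31 (adjusted p 0.0124), Psmd14 at -0.36 (adjusted p 0.0646), and Psmc6 and Psme3 passed downwards with Psmd1, 3 of 35 against 25.1% of all genes.

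Cell markers moved with these groups. The summed level of 8 T cell markers was 61.7 to 101.1 FPKM in mutant anti-PD-1 tumours and at most 30.1 FPKM elsewhere, and 7 of the 7 tested passed upwards with the antibody in mutant tumours. For 9 macrophage and monocyte markers the sums were 3413 to 8651 FPKM against 889.6 to 2397 FPKM, and 9 of 9 passed. Mutant PBS replicate 3, the tumour of its group with the highest Psme1 and Psme2, also had the highest T cell sum, 30.1 FPKM against 1.13 to 6.82 FPKM. Their part in the rises of Psme1 and Psme2 was not tested.

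In mutant anti-PD-1 replicates 1, where most 19S subunits were low, and 2, fibroblast markers summed to 2340 and 1477 FPKM against 268.4 to 335.2 FPKM in the other 3 tumours. In the mutant antibody comparison 6 of 6 fibroblast, 3 of 4 endothelial and 3 of 3 dendritic cell markers tested passed upwards. So did 2 of 2 B cell and 2 of 5 neutrophil markers tested, against 15.9% of all genes. Proliferation markers summed to 127.5 and 229.3 FPKM against 313.3 to 406.4 FPKM, and 4 of 8 passed downwards. The 3 tested epithelial markers had negative estimates in the same comparison and 1 passed. Cdx2 was listed at 0 in all mutant tumours but 1, a PBS tumour at 0.0361 FPKM, and at 0.227 to 0.863 FPKM in the vector tumours. Skeletal muscle markers summed to 84.9 to 1296 FPKM in mutant anti-PD-1 and 1.43 to 861.4 FPKM in mutant PBS tumours, with 0 of 8 past the threshold. The part of these tissues in the falls was not tested.

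Other genes of the pathway, from lists of their own, were set beside the 35. In the mutant antibody comparison 18 of 20 interferon-gamma targets passed upwards and 0 downwards, with a median of 1.92. Of 7 genes of peptide transport and loading, 5 rose: Tap1 (1.56) and Tap2 (1.33) of the peptide transporter, Tapbp (1.46), which links it to MHC class I, the trimming peptidase Erap1 (0.73) and B2m (0.94), the light chain of MHC class I. Their slopes on the score were 0.81, 0.52, 0.96, 0.44 and 0.26, and all 5 passed.

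Of 14 assembly factors and other associated proteins, 0 rose and 1 fell, Psmg2, an assembly chaperone of the alpha ring, at -0.63 ± 0.14 (log2, SE) with an adjusted p of 0.00244, against 14.6% of all genes lower. Against vector tumours under the antibody 5 of the 14 were lower: Uchl5 (-0.66), Psmg1 (-0.65), Psmg2 (-0.65), Psmg3 (-0.56) and Psmd9 (-0.26), a count to set beside 15.1% of all genes. Vector anti-PD-1 replicate 1 was left out here after its values were seen. Without it Uchl5 was at -0.55, Psmg1 at -0.50, Psmg2 at -0.53, Psmg3 at -0.33 and Psmd9 at -0.26, and with Psmd5 6 of the 14 passed, against 25.1% of all genes. In the mutant antibody comparison 6 of the 14 were then lower, against 27.9% of all genes.

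Of 4 regulators of proteasome genes none passed with the antibody in mutant tumours. Against vector tumours the protease Ddi2 (0.70, adjusted p 0.0205) and the transcription factor Nfe2l2 (0.49, adjusted p 0.0429) were higher, 2 of 4 against 17.8% of all genes. In the fit without vector anti-PD-1 replicate 1 they were at 0.43 and 0.28, with adjusted p values of 0.00492 and 0.0222. Nfe2l1, the factor that induces proteasome genes when proteasomes are inhibited, was at -0.15 against vector tumours, with an adjusted p of 0.856, and at -0.55 without that library, with 0.344. Of 12 genes of ubiquitin and its enzymes, 1 fell with the antibody in mutant tumours, Ubqln1, a shuttle to the proteasome (-0.38, adjusted p 0.0216), and 5 were lower with vector anti-PD-1 replicate 1 left out, against 27.9% of all genes.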

How the data were processed

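Bulk RNA from 20 CT26 tumours was measured in 4 groups of 5, assigned from the sample labels. The deposited values are FPKM per gene and library. The file headers name no unit, which was read from the values and from Cuffnorm in the list of tools. Per the submitters' processing notes, FastQC, STAR 2.5, Cuffnorm and DESeq were used on mm10, with no role stated. The annotation, strand setting, treatment of reads that match several genes and scaling are not stated there. Depth in reads is unknown: in each library only 7.9 to 21.9% of low values were whole multiples of a common step within 0.05, so no count test was run. No 2 libraries were duplicates (highest Spearman 0.983, at most 0.02% of values identical).

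Identifiers were matched to GENCODE vM21 (55154 of 55335). Genes at 1 FPKM or more in 5 or more libraries (13982) were tested with limma 3.58.1 in R 4.3.3 on log2(FPKM + 1), with an intensity trend, 4 group means and a term for title style (11 libraries with an M, 9 with a number alone). Fold changes on this scale understate changes of low genes. P-values were adjusted by Benjamini-Hochberg over all 13982 genes at a threshold of 0.05, and intervals are unadjusted. The slope fit added the interferon score. Ratios of FPKM were compared as geometric means by exact two-sided permutation tests without the term for title style, computed in Python 3.11.15 with numpy 2.4.6. The scripts were tested on simulated data. Labels do not say that the tumours came from separate animals, so p-values may measure technical spread in part.

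The 35 genes, the other lists and the tests were chosen with earlier results of these data known. Values are given for genes past a threshold, for Psme1 to Psme4 and for Psmb5 to Psmb7. Of other lists up to 4 genes with the smallest p were to be named, and where 5 passed all 5 are named, which was decided after their values were seen. Alternatives covered the pseudocount, the filter, 3 scalings, the trend, the style term, sample weights, a skeletal muscle term, each style alone, the 3 poorly correlated libraries, and each library left out in turn. Values of the assembly, regulator and ubiquitin lists without vector anti-PD-1 replicate 1 were added after seeing the data.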

Additional observations from a re-analysis of the deposited data

Results flagged for a closer look

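For each of the 35 genes in each of the 4 groups, the highest or lowest tumour was compared with its nearest neighbour by Dixon's criterion for 5 samples, 140 groups in all. Chance flags about 1 in 20 groups. The criterion was met 26 times, 14 of them in vector anti-PD-1 replicate 1.

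In that tumour 11 genes stood far above the other 4 of the group. In the core these were Psma6 at 177.5 FPKM, Psma7 at 181.7, Psmb2 at 112, Psmb3 at 99.43, Psmb4 at 228.4, Psmb6 at 85.9 and Psmb7 at 83.16 FPKM. In the cap they were Psmc2 at 29.88, Psmc3 at 88.48, Psmc4 at 106.4 and Psmd4 at 83.22 FPKM. The next highest tumours were at 104.1 FPKM for Psma6, 69.63 for Psma7, 117.8 for Psmb4 and 42.03 for Psmd4. The same tumour stood far below the rest for Psmc6 (38.02 against 41.35 FPKM), Psme3 (16.19 against 33.86) and Psme4 (5.122 against 8.427).

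The other 12 were spread over 7 tumours. Mutant PBS replicate 1 was far below its group for Psmb1 (28.29 FPKM), Psmb7 (33.07), Psmc3 (44.34) and Psmd1 (18.93). Mutant PBS replicate 3, the tumour of its group with the highest interferon score, was far above for Psme1 (77.12 against 43.83 FPKM) and far below for Psme3 (32.93 against 37.48). Mutant PBS replicate 4 was far below for Psmd11 (10.11 FPKM). Vector PBS replicate 1 was far above for Psme2 (66.27 against 47.45 FPKM) and far below for Psmc2 (19.77 against 21.31), and vector PBS replicate 3 was far below for Psmd4 (35.26 FPKM). Mutant anti-PD-1 replicate 5 was far above for Psma3 (37.6 against 32.3 FPKM), and replicate 4 far below for Psmb2 (53.12 against 64.18).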

How the results depend on the processing

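No paired analysis was possible because the labels give no numbers that pair tumours across groups. The counts below are of the 35 genes, and the cause of each shift was not tested. They are not results about these genes, because the share of all genes called also moved between settings. For anti-PD-1 in mutant tumours, 14.6% of all genes were lower over 20 libraries and 9.96% without the 3 poorly correlated libraries. Without vector anti-PD-1 replicate 1 the share was 27.9%. Such shares are not given for every setting below. Depth is unknown, so no limit from counting can be given.

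For anti-PD-1 in mutant tumours, 1 gene was higher with no filter, with no style term or with the muscle term, and 0 within M-style libraries. The genes lower were 0 after rescaling to equal totals, 12 with sample weights, 2 without the 3 poorly correlated libraries or within M-style libraries, and 1 with the muscle term, and 6 were level within M-style libraries. For anti-PD-1 in vector tumours, 16 were level with median centring and 11 within M-style libraries. For mutant against vector under PBS, 6 were higher with weights and 3 without the 3 libraries, 1 was lower in each of these, and 12 were level within M-style libraries.

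For mutant against vector under anti-PD-1, 1 was higher with no filter, median centring, no style term or the muscle term, 4 with weights and 0 within M-style libraries. The genes lower were 0 after rescaling, without the 3 libraries or within number-only libraries, 6 with quantile normalization, and 1 with no style term, weights, the muscle term or M-style libraries. Those level were 10 with median centring and 3 within M-style libraries. For the difference of responses, weights gave 2 higher, 2 lower and 32 level, number-only libraries 1 higher and 32 level, median centring 3 level, the fit without the 3 libraries 29 level, and M-style libraries 0 level. On the score, 5 rose after rescaling and without the 3 libraries, 2 with quantile normalization and 3 with weights.

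Within M-style libraries 5 log2 values changed sign: Psme2 under anti-PD-1 (-0.00562), the difference of responses of Psme1 (-0.07375) and Psme2 (-0.4336), Psme1 over Psme3 under PBS (-0.03604) and Psme2 over Psme3 under anti-PD-1 (-0.05696). Psmb10 over Psmb7 under anti-PD-1 no longer passed without the 3 libraries (1.507).

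Leaving out 1 tumour in turn, the genes higher ran from 1 to 3 for anti-PD-1 in mutant tumours, from 0 to 1 for the PBS comparison, from 1 to 3 under anti-PD-1 and from 0 to 3 on the score. The genes lower ran from 1 to 10, from 0 to 4 under anti-PD-1 and from 0 to 1 (Psme3) for the difference of responses, where 10 to 27 were level. Leaving out vector anti-PD-1 replicate 1 gave the highest of each of these except the count lower under anti-PD-1. That count was 4 without mutant anti-PD-1 replicate 5, 0 without mutant anti-PD-1 replicate 1 and 3 without vector anti-PD-1 replicate 1. Log2 differences ran from 0.5927 to 1.069 for Psmb10 over Psmb7 under PBS. For Psmb9 over Psmb6 they ran from 0.8763 to 1.373 in vector tumours and from 0.813 to 1.462 under PBS. For Psme1 over Psme3 they ran from 1.073 to 1.464 in mutant tumours, from -0.2283 to 0.2167 under PBS and from 0.5066 to 1.147 under anti-PD-1. For Psme2 over Psme3 they ran from 0.82 to 1.191 in mutant tumours and from 0.4321 to 1.052 under anti-PD-1.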
